A study of Mus musculus with 12 samples.

Results

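The genes described here are 3 targets of the coactivator YAP (Ctgf, Cyr61 and Ankrd1) and 7 genes of the smooth muscle contractile apparatus (Myl9, Acta2, Actg2, Tagln, Ppp1r14a, Cnn1 and Tpm1), taken by symbol from 24411 symbols in each of 12 RNA-seq libraries. All 10 were found in every file. They were chosen by the TPM values of some of them in gonads cultured with and without deferoxamine, so that comparison is given as a description, with a count of calls and no p for any of them. The libraries came from NR5A1(+) cells of mouse fetal gonads of the genotype Nr5a1-hCD271. Gonads with aorta, mesonephros and mesenchyme were dissected at E10.8 and cultured for 19.2 h. They gave 3 Dfo XY libraries (150 µM deferoxamine, an iron chelator), 3 control XY libraries and 2 control XX libraries. The other libraries, marked wild type in their titles and of the same genotype, were 2 from E11.5 XY and 2 from E11.5 XX gonads. How the E11.5 gonads were handled is not settled by the labels, which repeat the culture text for them.

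YAP and its relative TAZ are held in the cytoplasm by the kinases of the Hippo pathway and, when they reach the nucleus, act with TEAD factors on target genes. CTGF and CYR61 are secreted matrix-associated proteins of the CCN family, and ANKRD1 is an ankyrin repeat protein first known from heart muscle. Contractile genes are classic targets of SRF, which binds CArG boxes with the cofactors myocardin or MRTF. Contraction of smooth muscle starts when myosin light chain kinase phosphorylates the regulatory light chain MYL9, and myosin phosphatase, which PPP1R14A inhibits, reverses that step.

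Values are TPM, transcript abundances per length scaled to 1 total in every library, so levels can be set beside each other between genes, while the sequencing depth is unknown. Nothing in the labels says that replicates came from separate embryos or litters, so the spread and the p-values may reflect technical variation only. Dfo XY replicates 1 and 2 held 13.6 and 24.6 TPM of Xist, an RNA of XX cells, while the other XY libraries held at most 0.90 TPM. In bulk RNA, fewer cells of a type and less RNA per cell cannot be told apart. Nr5a1, the gene that defines the labelled cells, stood at 78.9 to 86.5 TPM in Dfo XY, 97.2 to 127.3 TPM in control XY, 212.3 to 238.9 TPM in control XX, 141.3 to 151.9 TPM in E11.5 XY and 145.2 to 211.35 TPM in E11.5 XX. The RNA component of RNase P, Rpph1, took 19.5% to 23.6% of all TPM in Dfo XY, 15.3% to 20.3% in control XY and 6.96% to 12.2% in the other libraries, so that the values of all other genes share what is left. All 9 markers of gonadal somatic cells were above 1 TPM somewhere in each group.

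The promoters of 7 of the 10 genes stood in the RefSeq table (GRCm38.p6), and Ctgf, Actg2 and Tagln were not among them. The 250 bases before the RefSeq start were searched on both strands for the TEAD-binding MCAT core (GGAATG or CATTCC), for the CArG box and for a CArG box with 1 A or T changed to C or G. By the GENCODE M21 spans given below, the Ankrd1 window lay inside the gene, and those of Acta2, Myl9 and Ppp1r14a partly inside. The MCAT core was in 4 of the 7, namely Cyr61, Ankrd1, Acta2 and Tpm1, and in 12.6% of 32851 promoters. A CArG box was in 1 of the 7, Myl9, and in 1.47% of promoters, and a changed one was in Acta2 and Myl9 and in 7.24% of promoters. The core of the hypoxia element (ACGTG or GCGTG, or CACGT or CACGC on the other strand) was in 3 of the 7, Cyr61, Cnn1 and Tpm1, and in 38.6% of promoters. Shown here are the YAP targets at hand, Acta2 as a contractile gene with both kinds of match, and Myl9 and Ppp1r14a, the pair that was lower in Dfo XY. Capitals mark MCAT and CArG matches, which did not overlap and describe the letters only.
Cyr61, chr3:145649986-145650235, strand -: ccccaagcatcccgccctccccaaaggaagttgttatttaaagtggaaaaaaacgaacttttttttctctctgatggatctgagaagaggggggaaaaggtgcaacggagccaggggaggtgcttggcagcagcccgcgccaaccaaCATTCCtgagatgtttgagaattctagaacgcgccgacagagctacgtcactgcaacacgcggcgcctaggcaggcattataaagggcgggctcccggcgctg
Ankrd1, chr19:36119845-36120094, strand -: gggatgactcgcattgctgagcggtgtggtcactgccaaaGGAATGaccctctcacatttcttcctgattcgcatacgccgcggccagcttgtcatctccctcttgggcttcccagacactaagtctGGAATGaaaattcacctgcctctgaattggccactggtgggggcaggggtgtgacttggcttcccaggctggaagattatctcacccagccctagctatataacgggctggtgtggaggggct
Acta2, chr19:34255374-34255623, strand -: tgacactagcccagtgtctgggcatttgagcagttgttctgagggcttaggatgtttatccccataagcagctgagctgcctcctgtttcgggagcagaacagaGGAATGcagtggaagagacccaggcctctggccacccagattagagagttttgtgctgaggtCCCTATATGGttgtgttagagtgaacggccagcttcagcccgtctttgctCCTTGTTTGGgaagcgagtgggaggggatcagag
Myl9, chr2:156775214-156775463, strand +: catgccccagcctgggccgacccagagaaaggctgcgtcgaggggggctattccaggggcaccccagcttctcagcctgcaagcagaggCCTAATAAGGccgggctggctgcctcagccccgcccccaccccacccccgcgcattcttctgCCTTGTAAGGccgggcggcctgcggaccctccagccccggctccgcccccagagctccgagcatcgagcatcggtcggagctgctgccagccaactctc
Ppp1r14a, chr7:29289070-29289319, strand +: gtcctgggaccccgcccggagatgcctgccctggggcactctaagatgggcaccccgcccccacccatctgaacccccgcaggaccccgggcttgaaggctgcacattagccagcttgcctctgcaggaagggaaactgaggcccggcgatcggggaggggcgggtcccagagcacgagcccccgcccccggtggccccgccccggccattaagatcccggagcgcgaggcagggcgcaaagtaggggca
The Ppp1r14a window held none of the 4 kinds of match, and the Myl9 window held CArG matches without an MCAT core.

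Ctgf had the largest difference between Dfo XY and control XY among the YAP targets. Ctgf (named Ccn2 in GENCODE M21; chromosome 10, 24595442 to 24598683, mm10) had 32.96, 25.2 and 50.95 TPM in Dfo XY, against 10.5, 9.70 and 10.07 TPM in control XY. Every Dfo library lay above every control library, and replicate 3 was the highest. The mean was 36.4 ± 13.2 TPM in Dfo XY and 10.09 ± 0.40 TPM in control XY (SD, n = 3 each), a difference of 1.70 ± 0.26 (SE) on the log2(TPM + 1) scale. Control XX had 10.2 and 18.9 TPM, E11.5 XY 19.2 and 13.8 TPM, and E11.5 XX 20.3 and 15.7 TPM of Ctgf. The 4 groups without deferoxamine thus lay between 9.70 and 20.3 TPM, and only the Dfo libraries were above that.

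Cyr61 was higher in all Dfo libraries too, by less. Cyr61 (Ccn1 in GENCODE M21; chromosome 3, 145646976 to 145649981) had 163.9, 151.1 and 195.3 TPM in Dfo XY, against 122.7, 123.2 and 101.55 TPM in control XY. The groups did not overlap, and the log2 difference was 0.55 ± 0.11 (SE). Levels in XX were higher than in any XY library, with 255.9 and 260.05 TPM in control XX and 315.3 and 341.85 TPM in E11.5 XX, beside 118.95 and 115.5 TPM in E11.5 XY.

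Ankrd1 (chromosome 19, 36111961 to 36120099) was near the low end of what was measured. It had 1.97, 3.25 and 5.64 TPM in Dfo XY, against 1.60, 2.78 and 0.61 TPM in control XY, and these groups overlapped. Control XX had 3.41 and 5.27 TPM, E11.5 XY had 0.76 and 2.30 TPM, and both E11.5 XX libraries were listed at 0. The log2 difference between Dfo XY and control XY was 0.80 ± 0.40 (SE).

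**Figure D1:**
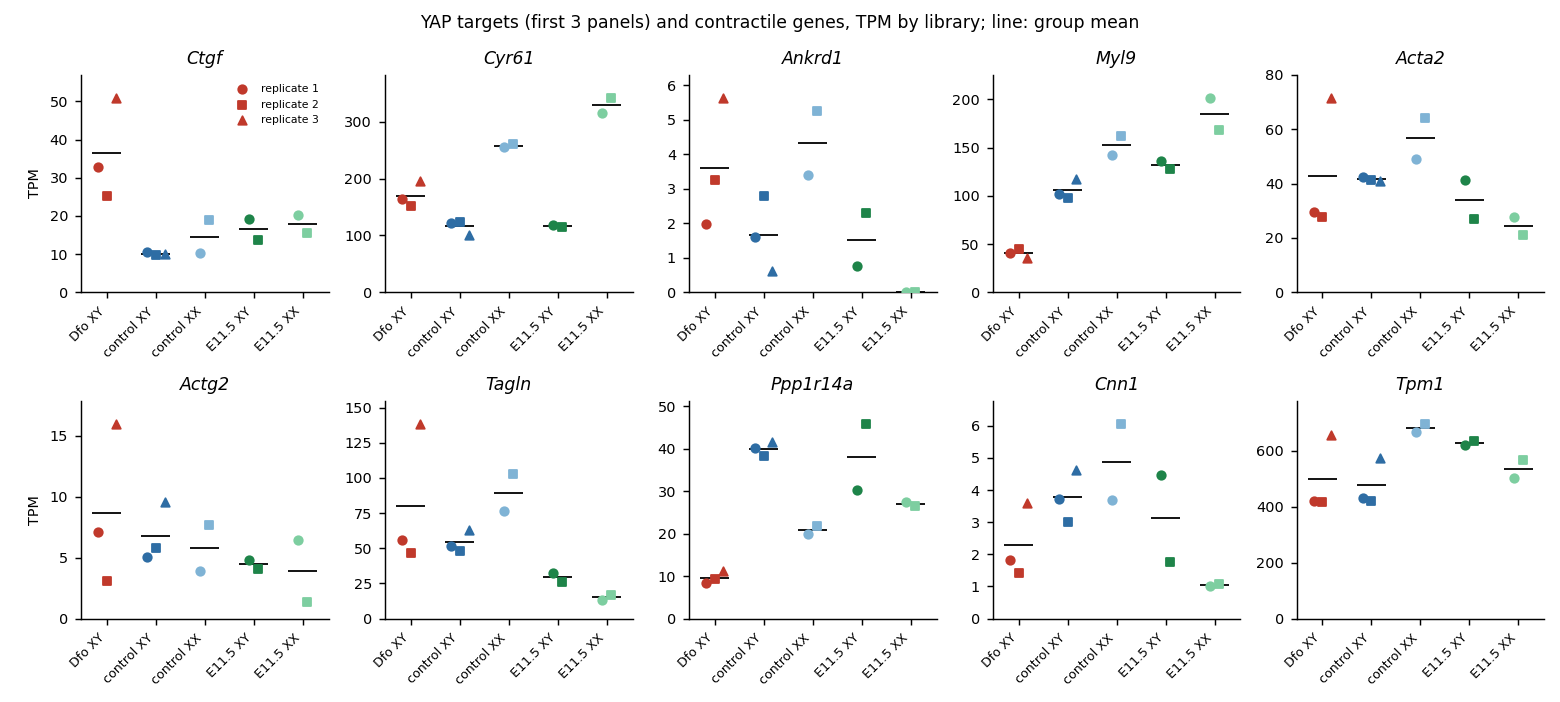
TPM of each of the 10 genes (y axis, from 0) in the 12 libraries, by group (x axis); points are libraries, with the replicate number as shape, and lines are group means. Myl9 and Ppp1r14a are lower and Ctgf and Cyr61 higher in each of the 3 Dfo XY libraries than in the 3 control XY libraries, and Dfo XY replicate 3 is the highest library for Tagln (138.2 TPM) and Acta2 (71.5 TPM).

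The contractile genes did not move as 1 block. Myl9 (chromosome 2, 156775420 to 156781658), the regulatory light chain, had 40.7, 45.3 and 35.6 TPM in Dfo XY, against 101.5, 97.95 and 117.6 TPM in control XY. The 3 Dfo libraries were the lowest of all 12. Control XX had 142.6 and 161.95 TPM, E11.5 XY had 136.0 and 127.96 TPM, and E11.5 XX had 201.5 and 168.4 TPM. The mean was 40.5 ± 4.83 TPM in Dfo XY and 105.7 ± 10.5 TPM in control XY (SD, n = 3 each), a log2 difference of -1.36 ± 0.11 (SE).

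Ppp1r14a (chromosome 7, 29289308 to 29293801), the inhibitor of myosin phosphatase also called CPI-17, had the largest difference of all 10 genes. It had 8.34, 9.34 and 11.2 TPM in Dfo XY, against 40.3, 38.2 and 41.6 TPM in control XY. Control XX had 19.99 and 21.8 TPM, E11.5 XY 30.2 and 45.8 TPM, and E11.5 XX 27.5 and 26.4 TPM. The 3 Dfo libraries were the lowest of all 12, and the log2 difference from control XY was -1.96 ± 0.16 (SE).

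For the actin genes and most genes of actin-binding proteins, Dfo replicate 3 stood apart from replicates 1 and 2. Tagln (chromosome 9, 45929619 to 45936058), the actin-binding protein SM22, had 56.1, 46.6 and 138.2 TPM in Dfo XY, against 51.7, 48.1 and 63.06 TPM in control XY. Acta2 (chromosome 19, 34241090 to 34255590), smooth muscle alpha-actin, had 29.6, 27.5 and 71.5 TPM in Dfo XY, against 42.35, 41.4 and 40.8 TPM in control XY. For both genes Dfo replicate 3 lay above all control libraries, and for Acta2 replicates 1 and 2 lay below them. Without Dfo replicate 3 the log2 difference was -0.52 for Acta2 and -0.08 for Tagln. Without Dfo replicates 1 and 2, the libraries that hold Xist, it was 0.77 for Acta2 and 1.34 for Tagln.

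Actg2 (chromosome 6, 83512905 to 83536265), smooth muscle gamma-actin, had 7.09, 3.08 and 15.97 TPM in Dfo XY, against 5.09, 5.82 and 9.54 TPM in control XY. Tpm1 (chromosome 9, 67022590 to 67049406), a tropomyosin that winds along actin filaments, had 419.97, 418.4 and 656.9 TPM in Dfo XY, against 432.1, 422.05 and 574.4 TPM in control XY. Cnn1 (chromosome 9, 22099216 to 22109630), the actin-binding protein calponin, had 1.83, 1.42 and 3.60 TPM in Dfo XY, against 3.71, 3 and 4.63 TPM in control XY. In all 3 genes the groups overlapped, and replicate 3 was the highest library of its group in both. The log2 difference was 0.12 for Actg2 and 0.05 for Tpm1, and -0.40 and -0.17 without Dfo replicate 3. Tpm1 was the most abundant of the 10 genes in every library.

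Of the 10 genes, 2 were called higher and 2 lower in Dfo XY by limma at an adjusted p below 0.05, where 15.5% of 16133 genes tested were called, 4.98% higher and 10.5% lower. Since this comparison chose the genes, nothing is read from that count. The calls were those of Ctgf, Cyr61, Myl9 and Ppp1r14a. These 4 were also the genes whose libraries did not overlap, as was so for 38.0% of all genes. The median log2 difference was 0.80 over the 3 YAP targets and -0.09 over the 7 contractile genes, beside -0.17 over all genes tested. After median-of-ratios scaling the calls over all genes were 1520 higher and 1024 lower, in place of 803 higher and 1695 lower, with a median of -0.05. Against the -0.17 of all genes, Ctgf stood 1.87 above and Myl9 1.19 below.

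Of 13 markers of striated muscle, 10 were highest in replicate 3 among the Dfo libraries, a share not computed for all genes. Replicate 3 also had more symbols above 0 (18041, against 16200 and 16147 in replicates 1 and 2). Of 12 markers tested, 2 were called lower in Dfo XY and 0 higher, beside 10.5% and 4.98% of all genes. Without Dfo replicate 3 the counts were 7 lower and 0 higher, where 1576 of 15934 genes tested were lower and 636 higher. The summed level of the 13 markers was 43.9, 32.5 and 155.96 TPM in Dfo XY, against 146.7, 105.4 and 163.99 TPM in control XY. Cardiac actin Actc1 had 5.4, 5.94 and 34.2 TPM in Dfo XY, against 33.5, 19.1 and 21.4 TPM in control XY, and Tnnt2, cardiac troponin T, 2.96, 1.96 and 19.1 TPM, against 8.32, 4.89 and 8.18 TPM. The pair called lower in the reported fit was low in all 3 Dfo libraries. Genes of this and the later lists were named by their calls, so their p-values are not independent of that choice. Tnni1, a troponin I gene, had 12.6, 13.3 and 14.5 TPM in Dfo XY, against 38.4, 34.4 and 49.1 TPM in control XY (limma, adjusted p = 0.000398). Myl7, an atrial light chain gene, had 13.85, 7.16 and 12.2 TPM in Dfo XY, against 30.7, 21.96 and 38.15 TPM in control XY (limma, adjusted p = 0.00217). In Dfo XY, and likewise in control XY, 1 of the 13 markers was at 0 in all libraries. The part of these markers in the values of Tagln, Acta2, Actg2 and Tpm1 was not tested. Myl9 and Ppp1r14a were low in replicate 3 as well (35.6 and 11.2 TPM), as they were in replicates 1 and 2.

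**Figure D2:**
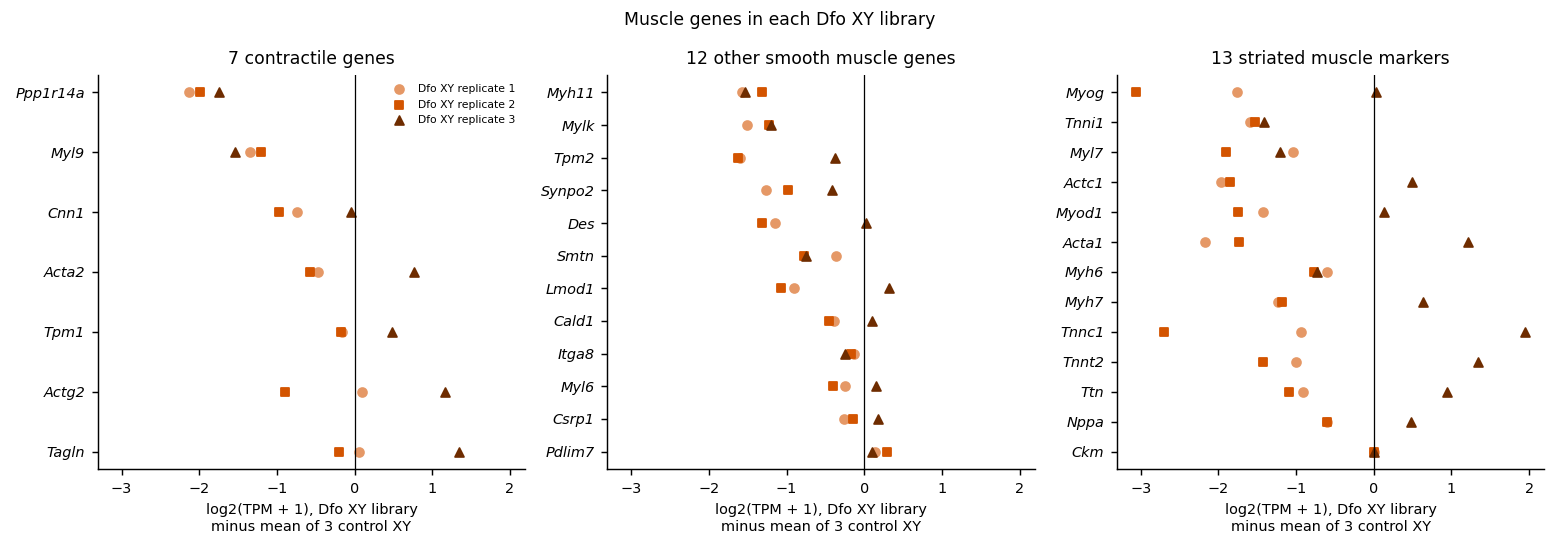
Log2(TPM + 1) of each Dfo XY library minus the mean of the 3 control XY libraries (x axis) for the contractile genes, 12 other smooth muscle genes and 13 striated muscle markers (y axis); point shapes are replicates. All 3 libraries lie together below 0 for Ppp1r14a, Myl9, Myh11 and Mylk, while replicate 3 lies apart to the right for Tagln (1.34), Acta2 (0.77), Actc1 (0.50) and Tnnt2 (1.34).

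Other smooth muscle genes were looked at beside them, and here too the p-values belong to genes named by their calls. Of 12 such genes, 4 fell in Dfo XY and 0 rose (limma), where 10.5% of all genes were called lower and 4.98% higher. Myh11, the smooth muscle myosin heavy chain, had 8.49 ± 0.91 TPM in Dfo XY and 25.3 ± 0.61 TPM in control XY (SD, n = 3 each), a log2 change of -1.47 ± 0.17 (limma, adjusted p = 0.000113). Mylk, the light chain kinase, had 2.39 ± 0.38 TPM in Dfo XY and 7.47 ± 1.66 TPM in control XY (limma, adjusted p = 0.00298). The tropomyosin gene Tpm2 fell by 1.20 ± 0.26 and Smtn, which encodes smoothelin, by 0.63 ± 0.14 on the log2 scale (limma, adjusted p = 0.00807 and 0.0112). The median of the 12 was -0.59, beside -0.17 over all genes.

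The Myh11 call was made in all 21 alternatives. Without Dfo replicates 1 and 2 the calls of Mylk and Tpm2 ended (limma, adjusted p = 0.0788 and 0.243). The Smtn call ended without control replicate 2 or Dfo replicate 2 and after median-of-ratios scaling (limma, adjusted p = 0.0555, 0.0532 and 0.0523). With replicates 1 and 2 of each XY culture group averaged, the Tpm2 and Smtn calls ended (limma, adjusted p = 0.0966 and 0.0668). Mesenchyme markers moved the same way, with 7 of 14 called lower and 0 higher (limma), beside 10.5% and 4.98% of all genes. Their summed level was 919.8 to 1052.5 TPM in Dfo XY, against 1235.8 to 1313.1 TPM in control XY. None of those 14 markers was at 0 in a whole group. Of the 9 gonadal somatic markers 4 were called lower and 0 higher, with a median of -0.46, beside -0.17 over all genes. The summed level of these 9 was 563.75 to 642.1 TPM in Dfo XY, against 735.0 to 896.8 TPM in control XY. Under median-of-ratios scaling, 1 of the 9 gonadal and 7 of the 14 mesenchyme markers had a lower call, where 1024 of 16133 genes tested did. The part of either list in the smooth muscle differences was not tested.

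Among SRF and its cofactors, Srf had 31.2, 29.9 and 36.6 TPM in Dfo XY, against 34.3, 34.5 and 31.96 TPM in control XY, and these groups overlapped. Mkl2, which encodes the cofactor MRTF-B, rose by 0.39 ± 0.11 (limma, adjusted p = 0.0321). Myocd, which encodes myocardin and is named after its values were seen, had 1.76, 1.23 and 1.22 TPM in Dfo XY, against 3.95, 2.81 and 5.16 TPM in control XY, and fell by 1.03 ± 0.28 (limma, adjusted p = 0.0282). The Mkl2 call ended when any 1 of the 6 XY culture libraries was left out, and the Myocd call when any of 5 of them was. Both also ended with replicates 1 and 2 of the XY cultures averaged, and that of Myocd after quantile normalization. Of 16 genes of non-muscle actomyosin 3 rose and 1 fell, beside 4.98% and 10.5% of all genes. Without Dfo replicate 3 the counts were 2 higher and 4 lower, where 636 of 15934 genes tested were higher and 1576 lower. The focal adhesion genes Zyx and Vcl rose by 0.59 ± 0.11 and 0.49 ± 0.12, and the light chain genes Myl12a and Myl12b moved apart, by 0.35 ± 0.08 and -0.79 ± 0.10 (limma, adjusted p = 0.00300, 0.0193, 0.0123 and 0.000241). The Vcl call ended without control replicate 1 or 2 or Dfo replicate 3, and the Myl12a call without Dfo replicate 2. Without both Dfo replicates 1 and 2 the Zyx and Myl12a calls ended, and with replicates 1 and 2 averaged those of Vcl and Myl12a.

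In the control of light chain phosphorylation, 2 of 12 genes rose and 1 fell, beside 4.98% and 10.5% of all genes. Rhob, a small GTPase, had 166.3 ± 24.3 TPM in Dfo XY and 81.6 ± 10.3 TPM in control XY (SD, n = 3 each), a log2 change of 1.02 ± 0.13 (limma, adjusted p = 0.000256). Rock2, which encodes a kinase that inhibits myosin phosphatase, rose by 0.50 ± 0.11 (limma, adjusted p = 0.00845), a call that ended without Dfo replicates 1 and 2 and with replicates 1 and 2 averaged. Ppp1r14b, a relative of Ppp1r14a, fell to 221.8 ± 24.5 TPM in Dfo XY, against 366.6 ± 31.6 TPM in control XY (limma, adjusted p = 0.000475).

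The remaining YAP signature and the Hippo pathway were set beside Ctgf and Cyr61. Of 20 other genes of a conserved YAP signature 2 rose and 0 fell, beside 4.98% and 10.5% of all genes, and their median was 0.23, beside -0.17 over all genes. These were Gadd45a, a stress-response gene, with 54.1 ± 5.09 TPM in Dfo XY and 23.25 ± 5.04 TPM in control XY, and Crim1, a transmembrane protein gene, with 24.5 ± 2.42 and 14.7 ± 1.61 TPM in the same groups (limma, adjusted p = 0.000430 and 0.0197; SD, n = 3 each). The Crim1 call ended without control replicate 1 or 3, or Dfo replicate 1 or 3, without both Dfo replicates 1 and 2, and with replicates 1 and 2 averaged. Amotl2, a known target named after its values were seen, had 59.3, 65.96 and 87.8 TPM in Dfo XY, against 54.25, 52.3 and 62.02 TPM in control XY, and these groups overlapped. After median-of-ratios scaling 7 of the 20 were called higher, where 1520 of 16133 genes tested were. Without Dfo replicate 3 the counts were 1 higher and 2 lower, where 636 and 1576 of 15934 genes tested were.

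Yap1 itself had 93.15, 99.6 and 91.7 TPM in Dfo XY, against 89.5, 85.7 and 95.75 TPM in control XY, a change of 0.07 ± 0.09. Of 22 Hippo pathway genes 2 rose and 3 fell, beside 4.98% and 10.5% of all genes. Wwtr1, the gene of TAZ, rose by 0.50 ± 0.10, and Tead2, which encodes a DNA-binding partner of YAP, fell by 0.47 ± 0.08 (limma, adjusted p = 0.00527 and 0.00159). Wwc2 rose by 0.57 ± 0.12, while Amot, which binds YAP, fell by 0.68 ± 0.14 and Frmd6 by 0.38 ± 0.11 (limma, adjusted p = 0.00603, 0.00791 and 0.0400). None of these 5 calls was made without Dfo replicates 1 and 2, and with replicates 1 and 2 of the XY cultures averaged the list had 0 higher and 1 lower. The Frmd6 call was made in 10 of 21 alternatives, and it ended under each of 3 other scalings, with only the compared groups in the fit and without any 1 of 5 libraries. After median-of-ratios scaling the list had 5 higher and 2 lower, where 1520 and 1024 of 16133 genes tested were. In the averaged fit 322 of 15996 genes tested were higher and 528 lower.

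**Figure D3:**
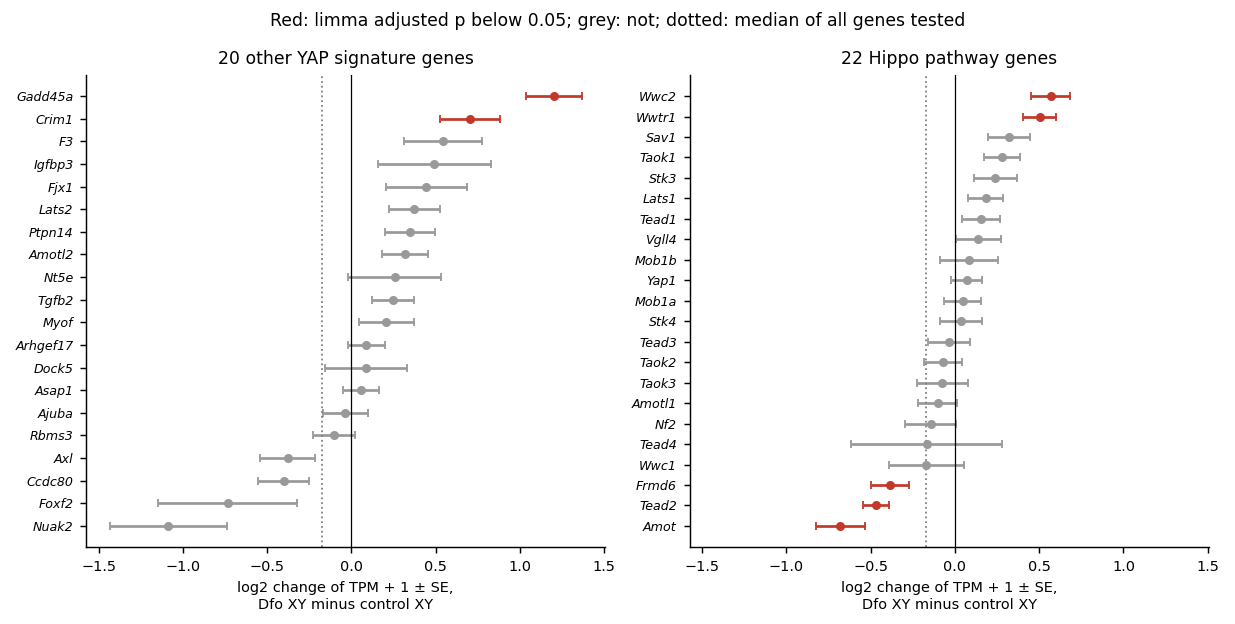
Log2 change ± SE (x axis, Dfo XY minus control XY, log2(TPM + 1)) of 20 other YAP signature genes and 22 Hippo pathway genes (y axis); red points passed the limma test, and the dotted line is the median of all genes (-0.17). Gadd45a (1.20) lies farthest to the right and Yap1 (0.07) close to 0.

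Wisp1, the only 1 of 4 further CCN genes abundant enough to be tested, had 13.7 ± 1.67 TPM in Dfo XY and 6.83 ± 0.59 TPM in control XY (SD, n = 3 each; limma, adjusted p = 0.0133). That call ended without control replicate 2 or Dfo replicate 1, without both Dfo replicates 1 and 2, and with replicates 1 and 2 averaged. Of 8 genes of TGF-beta signalling 7 were tested, and 2 rose and 0 fell, beside 4.98% and 10.5% of all genes. Their median was 0.31, beside -0.17 over all genes. Among them Skil, a negative regulator of SMADs, rose by 0.77 ± 0.10 (limma, adjusted p = 0.000311).

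Among 10465 genes with a mean of at least 5 TPM, those whose centred log2(TPM + 1) values over the 12 libraries differed least from those of Ctgf were Tpi1, Pgam1, Pkm, Ddias and Pvr. The root mean square difference was 0.23 for Tpi1 and 0.32 for Pvr, where Ctgf's own spread was 0.68. Tpi1, a glycolytic enzyme gene, averaged 432.2 TPM in Dfo XY, 129.6 TPM in control XY, 167.1 TPM in control XX, 173.4 TPM in E11.5 XY and 200.6 TPM in E11.5 XX. For Tagln the 5 nearest genes included Tnc, Acat2, Hmgcs1 and Filip1l, at 0.39 to 0.47 with an own spread of 0.93. Tnc, the matrix protein tenascin C, averaged 49.3 TPM in Dfo XY, 26.2 TPM in control XY, 58.98 TPM in control XX, 15.5 TPM in E11.5 XY and 14.5 TPM in E11.5 XX.

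At E11.5 the clearest sex difference was in Cyr61. These 4 libraries are not among those of the Dfo XY comparison, though the genes were chosen with earlier results of all libraries known. The fit also takes its spread from all 12 libraries. The p-values of the 10 genes at E11.5 are therefore not independent of that choice. Cyr61 averaged 117.2 ± 2.41 TPM in E11.5 XY and 328.6 ± 18.8 TPM in E11.5 XX (SD, n = 2 each), a log2 change of -1.48 ± 0.13 (limma, adjusted p = 0.000109). It was lower in both XY libraries than in both XX libraries, and the call was made in all 20 alternatives, including the fit without the 6 cultured XY libraries. Of the 10 genes this was the only 1 called, where 2.29% of all genes were.

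No contractile gene passed the test at E11.5, and 6 of the 7 had positive log2 changes. Tagln had 32.7 and 26.04 TPM in E11.5 XY, against 13.3 and 16.9 TPM in E11.5 XX (limma, adjusted p = 0.203). It was called in only 1 of 20 alternatives, the fit without Dfo XY replicate 3 (limma, adjusted p = 0.0345). Cnn1 had 4.48 and 1.76 TPM in E11.5 XY, against 1.03 and 1.08 TPM in E11.5 XX (limma, adjusted p = 0.239). Myl9 was lower in both XY libraries, with a log2 change of -0.48 ± 0.14 (limma, adjusted p = 0.0855). The median over the 7 contractile genes was 0.45, beside 0.00 over all genes.

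Of the other genes, Srf was lower in E11.5 XY, with 38.6 ± 1.73 TPM in E11.5 XY and 61.6 ± 6.29 TPM in E11.5 XX (SD, n = 2 each; limma, adjusted p = 0.0357), and this call was made in 10 of 20 alternatives. Myh11 had 7.42 ± 0.37 TPM in E11.5 XY and 15.6 ± 5.13 TPM in E11.5 XX (limma, adjusted p = 0.0380), called in 9 of 20. Wwtr1 and Frmd6 were lower in E11.5 XY too (-0.52 ± 0.12 and -0.71 ± 0.14; limma, adjusted p = 0.0491 and 0.0270), called in 4 and 14 of 20. These 4 were named after their values were seen. Of 20 other YAP signature genes 0 were called at E11.5, and of 22 Hippo pathway genes 2, where 2.29% of all genes were. Of 12 other smooth muscle genes 1 was called, and of 4 genes of SRF and its cofactors 1.

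In culture Cyr61 was again lower in XY. The control XY and control XX groups of Cyr61, whose values stand above, differed by -1.15 ± 0.12 (SE) on the log2 scale. Ppp1r14a was higher in control XY by 0.90 ± 0.18, and Myl9 lower by 0.52 ± 0.13. These 3 of 10 genes were called, where 25.2% of all genes were, 2.97% higher and 22.2% lower. Over all genes 479 were higher and 3585 lower, against 529 and 499 after median-of-ratios scaling and 291 and 323 after quantile normalization. The Myl9 call ended under each of 3 other scalings (-0.20, -0.11 and -0.25). The control XY libraries are those set against Dfo XY when the genes were picked, so counts of calls are given and no p. The Dfo XY libraries of Ppp1r14a lay below both control XX libraries and those of control XY above them.

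Culture for 19.2 h, set against E11.5, was accompanied by a higher TPM of Tagln in NR5A1(+) cells of XX gonads. Here too the genes were chosen with earlier results of all libraries known, so their p-values are not independent of that choice. Tagln had 76.3 and 102.4 TPM in control XX, against 13.3 and 16.9 TPM in E11.5 XX, a log2 change of 2.48 ± 0.38 (limma, adjusted p = 0.00213), and the call was made in all 20 alternatives. Ankrd1 had 3.41 and 5.27 TPM in control XX and was listed at 0 in both E11.5 XX libraries (limma, adjusted p = 0.0102), so no fold is given. That call ended without control XX replicate 2 or E11.5 XX replicate 2 (limma, adjusted p = 0.0673 and 0.0697). Cnn1 had 3.69 and 6.05 TPM in control XX, against 1.03 and 1.08 TPM in E11.5 XX (limma, adjusted p = 0.0411), and this call was made in 7 of 20 alternatives. These 3 of 10 genes were called, all higher in control XX, where 9.07% of all genes were called and 7.36% were called higher. That split was 1187 higher and 276 lower, against 474 and 377 after median-of-ratios scaling.

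Acta2 had 49.2 and 64.2 TPM in control XX, against 27.8 and 21.0 TPM in E11.5 XX, and did not pass (1.18 ± 0.36; limma, adjusted p = 0.0590). It passed in only 3 of 20 alternatives. These were the fit without Dfo XY replicate 3, that with only the compared groups and that with the replicate block (limma, adjusted p = 0.00484, 0.0205 and 0.0355). Ctgf, Cyr61, Myl9 and Ppp1r14a had negative changes, between -0.28 and -0.35, that did not pass (limma, adjusted p between 0.120 and 0.575). Of 12 other smooth muscle genes 2 rose, where 7.36% of all genes were called higher. Myh11 rose to 38.1 ± 2.7 TPM in control XX, against 15.6 ± 5.13 TPM in E11.5 XX (limma, adjusted p = 0.00327), and Pdlim7 rose by 0.70 ± 0.16 (limma, adjusted p = 0.0179), in 20 and 14 of 20 alternatives. Striated muscle markers were higher as well, with a summed level of 163.9 and 234.4 TPM in control XX, against 93.55 and 78.1 TPM in E11.5 XX, 3 of 12 tested called higher and Actc1 at 16.35 and 42.3 TPM, against 4.08 and 1.99 TPM. The calls of Actc1, Myl7 and Myh6 were made in 9, 11 and 5 of 20 alternatives, and 7.36% of all genes were called higher. In control XX 2 of the 13 markers were at 0 in all libraries, and in E11.5 XX 3 were. Their part in the Tagln, Acta2 and Cnn1 values was not tested.

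In XY, limma called 0 of the 10 genes between control culture and E11.5, where 5.66% of all genes were called. At an unadjusted p below 0.05 there were 4, where 23.5% of all genes were. Tagln stood at 51.7, 48.1 and 63.06 TPM in control XY, against 32.7 and 26.04 TPM in E11.5 XY, without overlap, a log2 difference of 0.86 ± 0.34 (SE). Ctgf was lower in every control XY library, with 9.70 to 10.5 TPM in control XY, against 13.8 and 19.2 TPM in E11.5 XY. Tpm1 was lower in control XY as well, by 0.41 ± 0.18. The control XY libraries are shared with the deferoxamine comparison, and no p is given for single genes. The test of whether the culture effect differed between XY and XX called 0 of the 10 genes, where 1.33% of all genes were called (limma). At an unadjusted p below 0.05 there were 3, where 20.8% of all genes were.

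**Figure D4:**
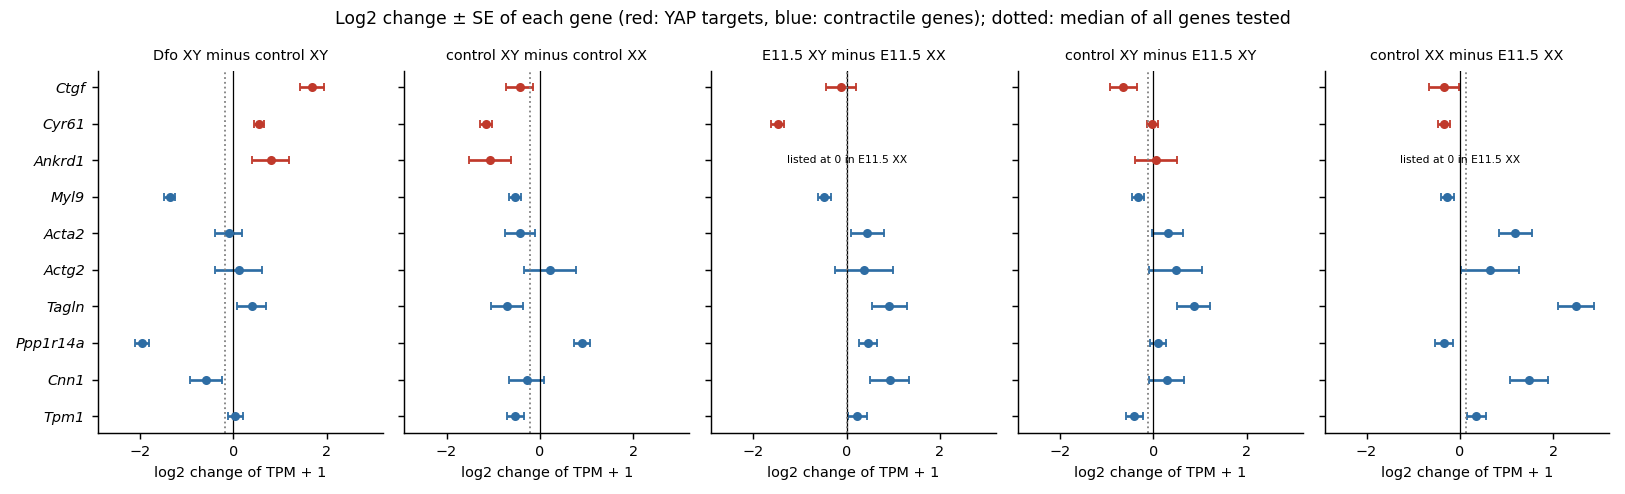
Log2 change ± SE (x axis, log2(TPM + 1)) of each of the 10 genes (y axis) in the 5 comparisons of groups; red marks YAP targets, blue contractile genes, and the dotted line the median of all genes, with no point for Ankrd1 where E11.5 XX was listed at 0. Ctgf is set apart from 0 in the Dfo panel (1.70), Cyr61 in both XY minus XX panels (-1.15 and -1.48), and Tagln in the panel of control XX minus E11.5 XX (2.48).

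Ordered by group mean, Cyr61 was highest in E11.5 XX, then control XX, Dfo XY, E11.5 XY and control XY. The last pair overlapped, and no other neighbouring pair did. Tagln was highest in control XX (89.4 ± 18.5 TPM, n = 2), then Dfo XY (80.3 ± 50.4 TPM, n = 3), control XY (54.3 ± 7.81 TPM, n = 3), E11.5 XY (29.4 ± 4.72 TPM, n = 2) and E11.5 XX (15.1 ± 2.55 TPM, n = 2; all SD), with Dfo XY overlapping both of its neighbours and no other pair of neighbours overlapping. As a ratio to Myl9, Tagln stood at 1.38, 1.03 and 3.88 in Dfo XY, against 0.51, 0.49 and 0.54 in control XY, 0.54 and 0.63 in control XX, 0.24 and 0.20 in E11.5 XY, and 0.07 and 0.10 in E11.5 XX. Tagln and Myl9 were thus in unequal proportion from group to group.

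Each gene's longest coding transcript in GENCODE M21 was compared with the transcripts of all other genes. Of its 1986 stretches of 50 bases, Acta2 shared 7 with another gene, the cytoplasmic actin gene Actg1 among them, and the other 9 genes shared none. Reads of such stretches could have been split between those genes.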

How the data were processed

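The authors aligned reads with STAR 2.7.10b to mm10 and estimated abundances with RSEM, and R 4.1.2 is also named, per the submitters' processing notes; the annotation, filters and strand setting are not stated there. The deposited values are TPM, 1 value per symbol and library, which keep no depth, so no counting interval or floor was computed. RNA was made into libraries with a stranded SMART-Seq kit, per the labels' protocols.

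Values were taken as log2(TPM + 1), and genes with at least 1 TPM in at least 2 libraries (16133) entered 1 limma 3.58.1 fit (R 4.3.3) over all 12 libraries, with 1 coefficient per group, a trended prior and Benjamini-Hochberg adjustment, called at an adjusted p below 0.05. The genes and lists were chosen with earlier results of these data known, so the Dfo XY comparison and those sharing its control XY libraries carry counts of calls and no p for the 10 genes. The p-values given for the 10 genes in the other comparisons are not independent of that choice either. Nor are those of genes named from the lists, which were picked by their calls or after their values were seen. From each other list the text names genes called in the Dfo XY comparison whose Dfo XY or control XY average reached 5 TPM, up to 4 per direction in order of adjusted p, and others as stated. Some genes that these rules pick are not reported here.

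Same-numbered Dfo XY and control XY libraries deviated together (r = 0.25, 0.13 and 0.35 across 10868 genes), which the labels do not explain, as did Dfo XY replicate 1 with control XY replicate 2 (0.18) and Dfo XY replicate 2 with control XY replicate 1 (0.14). With the replicate block the count of the 10 genes called between Dfo XY and control XY was also 4, where 3043 of 16133 genes tested were called. The alternatives were the pseudocount, the filter, 3 other scalings, the libraries in the fit, averaging replicates 1 and 2 of the XY cultures, leaving out each library, leaving out both Dfo XY libraries that held Xist, and the replicate block.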

Additional observations from a re-analysis of the deposited data

Results flagged for a closer look

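For Ankrd1 the sex differences had opposite signs in culture and at E11.5, and neither was called in the reported fit. The log2 difference of control XY minus control XX was -1.07, while both E11.5 XY libraries lay above the E11.5 XX libraries, which were listed at 0. Those of Tagln also had opposite signs, at -0.70 in culture and 0.92 at E11.5 on the log2 scale. Neither was called in the reported fit, and the libraries overlapped in neither. The culture differences of Tpm1 had opposite signs, -0.41 in XY (control XY minus E11.5 XY) and 0.35 in XX (control XX minus E11.5 XX). Neither was called in the reported fit. These differences between effects are given as values: the control XY libraries are those of the Dfo XY comparison that chose the genes, so no p is given for single genes. At an adjusted p below 0.05 the difference between culture effects was called for 0 of the 10 genes (limma).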

How the results depend on the processing

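The count of the 10 genes called between Dfo XY and control XY was 4 in the reported fit and 4 or 5 in the others. With the replicate block 3 were called for the difference of culture effects, 5 for control XX against E11.5 XX, 5 for control XY against control XX and 1 for control XY against E11.5 XY, in place of 0, 3, 3 and 0. Outside the Dfo XY comparison these numbers pair libraries by number only. Over all genes the block called 1758, 2023, 5005 and 2592 of 16133 in the same order, in place of 215, 1463, 4064 and 913. With only the compared groups in the fit the counts were 5 for control XY against control XX and 1 for control XY against E11.5 XY. Those fits called 4155 of 14206 and 427 of 15373 genes tested. A pseudocount of 0.1 gave 2 for E11.5 XY against E11.5 XX, in place of 1, where 248 of 16133 genes tested were called. Leaving out single libraries gave 1 to 2 there, 1 to 4 for control XX against E11.5 XX, 2 to 5 for control XY against control XX and 0 to 1 for control XY against E11.5 XY. In the pathway lists 21 genes were called without both Dfo XY libraries that held Xist, in place of 38. Of the tested log2 changes, those of Actg2 and Ctgf reversed when single libraries were left out, ranging between -0.45 and 1.21 (Actg2) and -0.35 and 0.10 (Ctgf) for E11.5 XY minus E11.5 XX, and between -0.18 and 1.47 (Actg2) and -0.75 and 0.075 (Ctgf) for control XX minus E11.5 XX. Over all genes the calls ranged from 850 to 3043 for Dfo XY against control XY (2498 reported), from 614 to 5005 for control XY against control XX (4064), from 30 to 971 for E11.5 XY against E11.5 XX (370), from 195 to 2592 for control XY against E11.5 XY (913) and from 432 to 2023 for control XX against E11.5 XX (1463). The causes were not tested. TPM keeps no depth, so what depth limits is unknown.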
